A study of Rattus norvegicus with 2 samples.

Results

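Axon guidance ligands and receptors were followed in fetal rat skin: 63 genes out of the 18320 distinct gene names on the arrays. They were picked by name alone, as every gene whose array name begins with Sema, Plxn, Nrp and a digit, Epha, Ephb, Efna, Efnb, Ntn and a digit, Slit or Robo. The rule uses names and no measured value, although it was proposed with earlier results of these data known. By family they were 20 semaphorins, 8 plexins, 2 neuropilins, 8 ephrins, 11 Eph receptors, 2 netrins, 3 Slit ligands, 4 Robo receptors and 5 Slitrk genes. Slitrk genes are not Slit ligands, although they are named for leucine-rich repeats that resemble those of Slit proteins. They encode transmembrane proteins that act in neurite outgrowth and synapse formation, and they are described apart.

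The E19 pool held skin RNA of 3 Sprague Dawley rat fetal samples at day 18.5, and the E16 pool that of 4 such samples at day 16.5. Total RNA was extracted with the NucleoSpin RNA II kit and amplified and labelled with Agilent's linear amplification kit, per the labels. Both pools were hybridised together on 2 two-colour Agilent rat arrays, with E19 in Cy5 on the first and in Cy3 on the second. Each stage is therefore 1 pooled RNA, and every SD below is the technical spread of 2 arrays, not the spread between fetuses or litters. No difference between the stages has a replicate check, and no p-value is given.

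Axon guidance molecules were first known as cues that attract or repel growing axons. Class 3 semaphorins are secreted and act through neuropilins and plexins, other semaphorins bind plexins directly, Slits act through Robo receptors, and netrins through Dcc and the Unc5 receptors. Ephrins are bound to the membrane and signal both into the cell that carries the Eph receptor and back into their own. In skin the same families also act outside nerves, in blood vessels, keratinocytes and the mesenchyme.

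Levels are background-corrected, normalised log2 intensities of a gene's brightest probe. They are compared only between pools, for the same probe or, in the marker sums, the same set of probes. Ratios are log2 E19 over E16, so that a positive value is higher in E19. A probe counted as detected when it was well above background in at least 1 pool on both arrays. A gene was called when both arrays put it at least 2-fold higher in the same pool. Any overlap of the pools below concerns technical readings of 1 pool per stage. For a called gene, a lack of overlap follows largely from the call. Of the 43379 non-control spots per array, 72.4% and 71.5% were well above background in E19, and 71.5% and 74.3% in E16. Keratinocyte genes of the labelled tissue were present, with 9 of 10 basal and 9 of 9 measured suprabasal markers detected. Neuron marker genes differed between the pools: 8 of 10 were called higher in E16 and 0 in E19, with a median ratio of -2.63. Of all detected genes, 3.75% were called higher in E16 and 4.15% in E19.

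Of the 63 genes, 56 were detected, and 54 gave a signal well above background in both pools. Ephb6 and Epha1 were at least 2-fold higher in E19. Epha3, Ephb1, Slit2, Sema6a, Slitrk5 and Slitrk3 were at least 2-fold higher in E16. The 2 genes higher in E19 were 3.57% of the detected members, against 4.15% of all 14802 detected genes. The 6 genes higher in E16 were 10.7% of the detected members, against 3.75% of all detected genes, and without the Slitrk genes they were 4 of 51, or 7.84%. In either direction 8 of 56 members were called, or 14.3%, against 7.9% of all detected genes. The other 48 detected members were not called, and 7 members, Sema4d, Plxna4, Efnb2, Efnb3, Epha6, Ntn1 and Robo3, were not detected with these probes.

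The median ratio of the 56 detected members was -0.12, with quartiles of -0.46 and 0.16 and a range of -1.91 to 1.46. Over all detected genes the median was 0.02, with quartiles of -0.22 and 0.27. Ratios lay above 0 for 22 members and below 0 for 34, and for 10 members the arrays differed in sign. Over all 14802 detected genes, 7771 ratios lay above 0 and 7031 below, and for 3170 the arrays differed in sign. A ratio of at least 0.5 in size was found in 33.9% of the detected members, against 25.4% of all detected genes. Across the 56 members the first array's ratios correlated with the second's at r = 0.94 (rho = 0.90), and the points share the same 2 RNA pools. Across all detected genes r was 0.90 (rho = 0.80). The median SD of the 2 arrays was 0.12 over the members and 0.11 over all detected genes.

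**Figure D1:**
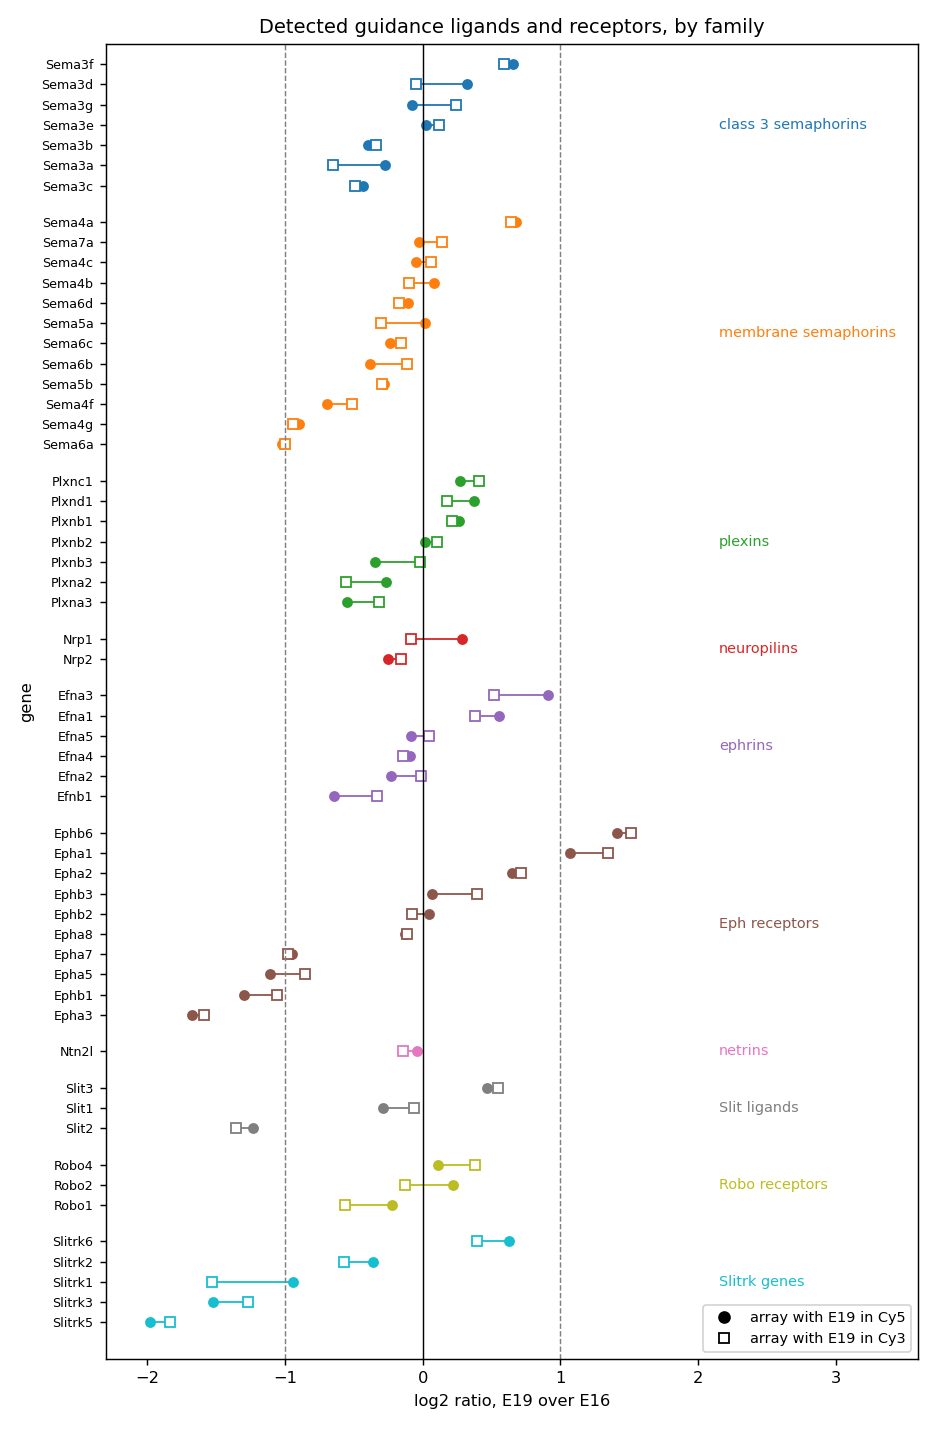
Log2 ratio E19 over E16 (x axis) of the 56 detected members, listed by family, with filled circles for the array with E19 in Cy5, open squares for the array with E19 in Cy3 and dashed lines at 2-fold. The 2 members to the right of both lines are Ephb6 and Epha1, and the 6 beyond the left line on both arrays include 2 Slitrk genes.

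Eph receptors held 4 of the 8 called genes. They are receptor tyrosine kinases, whose A type mainly binds ephrin-A and whose B type mainly binds ephrin-B proteins. Of 11 on the array, 10 were detected, with 2 called higher in E19 and 2 higher in E16. Each count is 20% of the 10, against 4.15% and 3.75% of all detected genes. In 7 of those 10, or 70%, the ratio was at least 0.5 in size, against 25.4% of all detected genes. Their median of -0.07 lies between large ratios of both signs, and both types held 1 call in each direction.

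Promoters are printed for these 4 receptors, because they are the members of 1 family that differed in opposite directions. Each is the RefSeq stretch of the GRCr8 assembly from 250 bases before to 50 bases after the transcript start that the promoter table uses, read 5′ to 3′ on the gene's strand. For Ephb6 and Ephb1 that start is the outer end of the annotated gene. For Epha1 it lies 69 bases and for Epha3 296 bases inside that end, so that the Epha3 stretch falls within the annotated gene. Capitals mark GGGCGG, the GC box, searched on both strands, so that CCGCCC is its reverse complement. The Epha1 stretch lies at chr4:72227425-72227724 on the minus strand, and the Ephb6 stretch at chr4:71458382-71458681 on the plus strand. That of Epha3 lies at chr11:14920376-14920675 and that of Ephb1 at chr8:111823710-111824009, both on the minus strand.
Epha1: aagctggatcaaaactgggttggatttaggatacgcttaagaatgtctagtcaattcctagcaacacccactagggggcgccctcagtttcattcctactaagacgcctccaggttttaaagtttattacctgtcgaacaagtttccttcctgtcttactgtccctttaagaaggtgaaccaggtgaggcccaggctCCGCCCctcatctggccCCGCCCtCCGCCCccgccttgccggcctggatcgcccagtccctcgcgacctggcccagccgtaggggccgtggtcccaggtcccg
Ephb6: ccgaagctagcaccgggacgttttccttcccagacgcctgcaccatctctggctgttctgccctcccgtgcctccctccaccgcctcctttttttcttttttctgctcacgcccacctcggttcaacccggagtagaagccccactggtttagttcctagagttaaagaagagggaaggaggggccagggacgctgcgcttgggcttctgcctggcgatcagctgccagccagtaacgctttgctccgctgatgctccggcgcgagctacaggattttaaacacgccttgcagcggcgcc
Epha3: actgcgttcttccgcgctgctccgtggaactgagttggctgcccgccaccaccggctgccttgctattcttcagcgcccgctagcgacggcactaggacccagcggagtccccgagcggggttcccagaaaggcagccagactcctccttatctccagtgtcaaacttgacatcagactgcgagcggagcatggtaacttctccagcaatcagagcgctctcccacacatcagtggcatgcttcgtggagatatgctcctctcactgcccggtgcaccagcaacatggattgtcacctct
Ephb1: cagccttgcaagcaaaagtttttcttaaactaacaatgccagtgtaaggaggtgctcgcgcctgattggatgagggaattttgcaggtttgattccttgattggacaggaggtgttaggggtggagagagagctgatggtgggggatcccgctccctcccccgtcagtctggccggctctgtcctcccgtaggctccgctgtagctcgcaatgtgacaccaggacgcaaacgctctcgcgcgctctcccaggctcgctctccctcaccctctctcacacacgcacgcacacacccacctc

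The Epha1 stretch held 3 GC boxes and those of Ephb6, Epha3 and Ephb1 held 0. GC content was 57.3% for Epha1, 59.7% for Ephb6, 59.3% for Epha3 and 58.0% for Ephb1. Of the 63 members, 52 were matched to a RefSeq promoter, and 25 of these, or 48.1%, held at least 1 GC box. The start used was the gene's outer end in 22 of the 52 and inside the gene in 30. The share with a GC box was 57.8% of 10312 promoters of detected genes and 34.9% of all 27457 promoters. TATAAA, the TATA box, was found on either strand in 0 of 52 member promoters, against 8.4% of those of detected genes and 14.3% of all. CAGGTG, an E-box, was found in 7 of 52, or 13.5%, against 18.2% of those of detected genes and 18.7% of all. The 52 include members that were not detected. Of the 49 promoters of detected members, 23 held a GC box (46.9%), 0 TATAAA and 5 CAGGTG (10.2%). No motif holds another whole, although a GC box and an E-box can share a base at their ends. A match of letters is a description of the sequence alone.

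Ephb6 encodes an Eph receptor whose kinase domain lacks catalytic activity. Its level was 11.71 and 11.78 in E19, against 10.29 and 10.27 in E16. Both E19 values stood above both E16 values, and the ratio was 1.46 ± 0.07 (SD of 2 arrays), or 2.76-fold higher in E19. A dimmer Ephb6 probe had a ratio of 0.40 ± 0.04 and was not called.

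Epha1 encodes a receptor of the A type known from epithelia, including the epidermis in mouse. Its brightest probe had levels of 10.49 and 10.70 in E19, against 9.41 and 9.36 in E16. The pools did not overlap, and the ratio was 1.21 ± 0.19, or 2.31-fold higher in E19. The other 2 Epha1 probes, designed from a different transcript record, had ratios of -0.19 ± 0.01 and -0.36 ± 0.03. The direction for Epha1 therefore rests on 1 of 3 probes.

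Ephb6 and Epha1 lie on the same chromosome, at chr4:71458632-71473889 and chr4:72213022-72227543 in GRCr8, 739 kb apart. The 769 kb from the start of Ephb6 to the end of Epha1 hold 23 annotated genes, of which 12 had a probe and 8 were detected. Ephb6 and Epha1 were the only called genes among those 8, whose median ratio was -0.02. Trpv6, a calcium channel gene next to Ephb6, had 0.39 ± 0.09, and Zyx, a focal adhesion gene next to Epha1, had -0.26 ± 0.07. Of the detected genes between Ephb6 and Epha1, Fam131b had the largest ratio in size, -0.78 ± 0.22, with the opposite sign to both.

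Epha3 encodes an ephrin-A receptor with known roles in axon guidance and cell sorting. Its level was 7.44 and 7.52 in E19, against 9.11 and 9.11 in E16. This was the largest difference among the Eph receptors, with a ratio of -1.63 ± 0.06, or 3.10-fold higher in E16.

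Ephb1 encodes a receptor that steers retinal axons at the optic chiasm in mouse. Its level was 9.21 and 9.33 in E19, against 10.50 and 10.38 in E16. Every E19 value stood below every E16 value, and the ratio was -1.18 ± 0.17, or 2.27-fold higher in E16. A second Ephb1 probe, with -1.06 ± 0.03, was also called.

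Epha7 and Epha5, neuronal receptors of the A type, lay just short of the call, which each passed under other settings (5 of 13 for Epha7, 6 of 12 for Epha5). Epha7 levels were 7.58 and 7.66 in E19, against 8.53 and 8.64 in E16, a ratio of -0.96 ± 0.02 that was below 2-fold on both arrays. Epha5 was not well above background in E19 on either array, with levels of 6.34 and 6.72, against 7.46 and 7.58 in E16. A dimmer Epha5 probe, also detected, had a smaller difference, with a ratio of -0.70 ± 0.03. For the brightest probe alone, the mean difference over the arrays was 1.98-fold or more towards E16. This bound sets the E16 level against whichever was higher in E19 per array, the level of this probe or that of the dimmest probe still well above background.

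Epha2, an epithelial receptor found in keratinocytes, had levels of 8.24 and 8.36 in E19, against 7.59 and 7.65 in E16. The pools did not overlap, and its ratio of 0.68 ± 0.05 stayed below 2-fold. Ephb3 had a ratio of 0.23 ± 0.23 and Epha8 one of -0.12 ± 0.01. Ephb2 showed the smallest ratio of the family, -0.02 ± 0.09. Its levels overlapped, with 8.48 and 8.38 in E19, against 8.44 and 8.46 in E16.

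**Figure D2:**
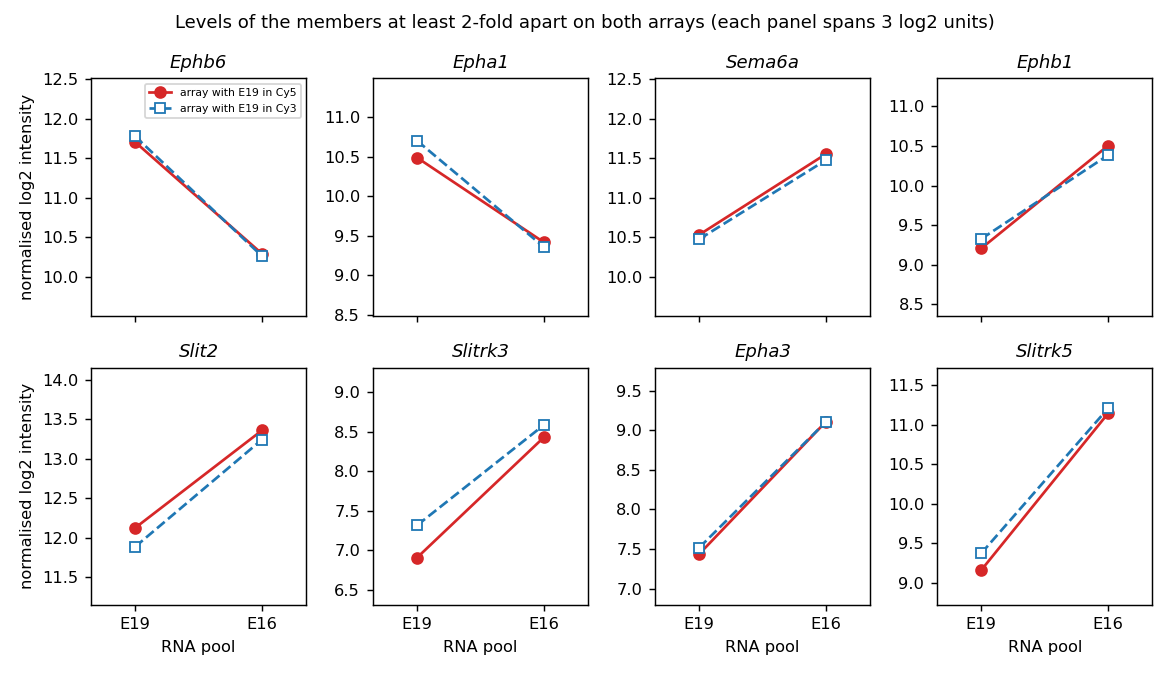
Normalised log2 intensity (y axis) of the 8 called members in the E19 pool (left in each panel) and the E16 pool (right), 1 point per array. In each panel the 2 values of the higher pool stand apart from the 2 of the other, as for Slitrk5 with 9.16 and 9.37 in E19 against 11.14 and 11.21 in E16.

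Ephrins, the ligands of these receptors, held 0 calls in either direction, against 7.9% of all detected genes. In a family this small, 0 calls is close to that share. Of 8 on the array, 6 were detected, with ratios from -0.49 to 0.71 and a median of -0.07. Efna3 was highest, with levels of 13.09 and 12.74 in E19, against 12.18 and 12.22 in E16, and a ratio of 0.71 ± 0.28. A second Efna3 probe had 0.95 ± 0.13. Efnb1, a transmembrane ephrin, was lowest, with levels of 12.01 and 12.01 in E19, against 12.66 and 12.34 in E16, and a ratio of -0.49 ± 0.22. In neither gene did the pools overlap, and neither reached 2-fold on both arrays. Efna1 had 0.47 ± 0.13, Efna4 -0.12 ± 0.04, and Efna2 -0.12 ± 0.16. Efna5, with -0.02 ± 0.09, had overlapping levels of 7.50 and 7.50 in E19, against 7.59 and 7.45 in E16. Among the members, Efna1, Efna3 and Efna4 follow each other on chromosome 2, with gaps of 38 and 11 kb, and the middle gene had the highest ratio.

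Slit2 was the only Slit ligand called, or 33.3% of 3, against 7.9% of all detected genes called in either direction. Slits are secreted proteins that repel many axons and, for Slit2, promote branching of sensory axons. Slit2 levels were 12.12 and 11.89 in E19, against 13.36 and 13.24 in E16. The pools stood apart, and the ratio was -1.29 ± 0.09, or 2.45-fold higher in E16. A second Slit2 probe was also called, with -1.47 ± 0.07.

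Slit3 had the opposite sign, with levels of 13.63 and 13.72 in E19, against 13.16 and 13.17 in E16, and a ratio of 0.51 ± 0.06. Slit1 levels were 8.45 and 8.51 in E19, against 8.73 and 8.57 in E16, a ratio of -0.17 ± 0.16. Of the Robo receptors, 3 of 4 were detected and 0 were called, against 7.9% of all detected genes. Robo1, a Slit receptor of axons, had levels of 8.76 and 9.06 in E19, against 8.99 and 9.62 in E16, with overlap and a ratio of -0.40 ± 0.24. Robo2, a second receptor of axons, had 12.30 and 12.23 in E19, against 12.07 and 12.36 in E16, also with overlap and a ratio of 0.05 ± 0.25. Robo4, a receptor of endothelial cells, had a ratio of 0.24 ± 0.19. The SDs of these receptors were above the median of 0.12 over the members.

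Semaphorins gave 1 call among 19 detected of 20, or 5.26%, against 7.9% of all detected genes called in either direction. The median ratio was 0.07 for the 7 class 3 semaphorins, all detected, and -0.17 for the 12 detected members of the membrane-bound and other classes. In those 12 genes 3 ratios were above 0 and 9 below. Each of the 4 class 6 semaphorins, which span the membrane and bind A-type plexins, had a ratio below 0 on both arrays.

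Sema6a had levels of 10.53 and 10.48 in E19, against 11.55 and 11.48 in E16. The ratio was -1.01 ± 0.01, or 2.02-fold higher in E16. It stood just inside the call on both arrays, where Epha7 and Sema4g stood just outside. The other 3 Sema6a probes had ratios of -0.75 ± 0.07, -0.79 ± 0.10 and -0.19 ± 0.07, with the same sign and below 2-fold. Sema6b had -0.25 ± 0.19, Sema6c -0.20 ± 0.06 and Sema6d -0.14 ± 0.05.

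Sema4g, a transmembrane semaphorin, had levels of 8.70 and 8.58 in E19, against 9.60 and 9.53 in E16. Its ratio was -0.92 ± 0.03, while its dimmer probe had 0.02 ± 0.10. Sema4f had -0.60 ± 0.13. Sema4a, known also from immune cells, had levels of 9.13 and 9.17 in E19, against 8.45 and 8.53 in E16, and the highest ratio of the membrane class, 0.66 ± 0.03. Sema4c had the smallest ratio, 0.005 ± 0.08. Its levels were 7.70 and 7.65 in E19, against 7.75 and 7.59 in E16, so that the pools overlapped.

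Among the class 3 semaphorins Sema3f, a repellent that acts through Nrp2, was highest. Its levels were 12.98 and 12.96 in E19, against 12.32 and 12.37 in E16, and its ratio was 0.62 ± 0.05. Sema3a, a repellent of sensory axons that acts through Nrp1, had levels of 8.49 and 8.27 in E19, against 8.77 and 8.92 in E16. The pools did not overlap for Sema3a, and its ratio was -0.46 ± 0.27. Sema3c had -0.46 ± 0.04, Sema3b -0.37 ± 0.04 and Sema3e, a ligand that binds Plxnd1 directly, 0.07 ± 0.07. Sema3b and Sema3f lie 75 kb apart on chromosome 8 and had ratios of opposite sign.

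Neither neuropilin was called, against 7.9% of all detected genes. Nrp1 had levels of 10.39 and 9.99 in E19, against 10.10 and 10.07 in E16, so that the pools overlapped, with a ratio of 0.10 ± 0.26. Nrp2 was not well above background in E19 on either array, with levels of 6.55 and 6.59, against 6.80 and 6.74 in E16. It was at least 1.15-fold higher in E16, which is a small difference near the background.

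Plexins, the semaphorin receptors, held 0 calls among 7 detected of 8, against 7.9% of all detected genes. By the brightest probe of each gene, a ratio of at least 0.5 in size was found in 0 of the 7, against 25.4% of all detected genes. Plxna3 was lowest, with levels of 8.14 and 8.51 in E19, against 8.69 and 8.84 in E16, and a ratio of -0.43 ± 0.16. Plxnc1, the receptor of Sema7a, was highest, with levels of 11.924 and 11.997 in E19, against 11.652 and 11.586 in E16, and a ratio of 0.34 ± 0.10. Plxnd1, prominent in endothelial cells, had 0.28 ± 0.14 and Plxna2 had -0.41 ± 0.21. Dimmer detected Plxna2 probes had -0.71 ± 0.11, which is past 0.5 in size, and -0.05 ± 0.004. Plxnb2, a receptor of class 4 semaphorins, had the smallest ratio, 0.06 ± 0.06, with levels of 11.65 and 11.63 in E19, against 11.63 and 11.53 in E16. Of the netrins, Ntn2l (now named Ntn3) was detected, with levels of 10.03 and 9.98 in E19, against 10.08 and 10.12 in E16, and a ratio of -0.09 ± 0.07.

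**Figure D3:**
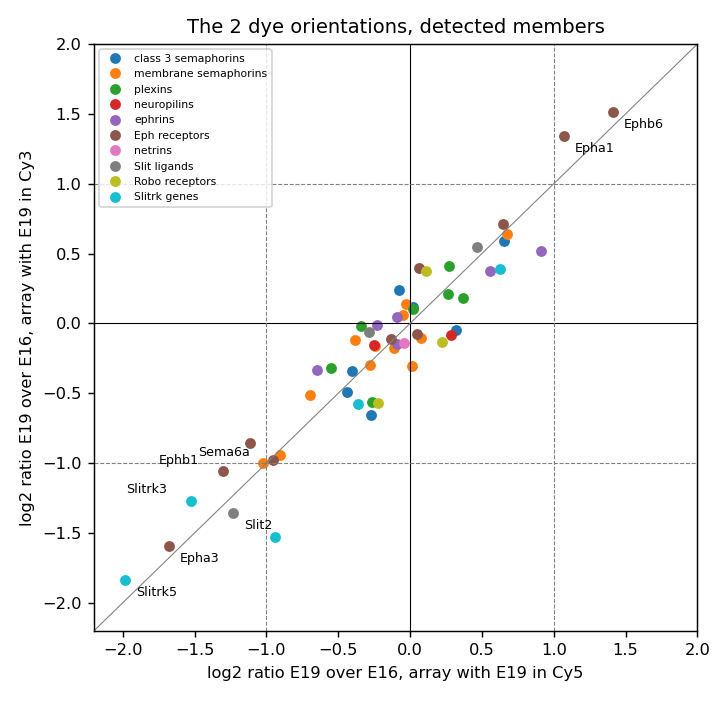
Log2 ratio E19 over E16 on the array with E19 in Cy3 (y axis) against that with E19 in Cy5 (x axis) for the 56 detected members, coloured by family, with dashed lines at 2-fold. Points lie along the diagonal (r = 0.94), and the 8 labelled genes are past 2-fold on both axes.

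Slitrk genes were all detected, and 4 of 5 had ratios below 0. Slitrk5 had the lowest ratio of all members. Its levels were 9.16 and 9.37 in E19, against 11.14 and 11.21 in E16, a ratio of -1.91 ± 0.11, or 3.75-fold higher in E16. Its dimmer probe was not detected.

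Slitrk3 had levels of 6.91 and 7.32 in E19, against 8.43 and 8.59 in E16. The ratio was -1.40 ± 0.18, or 2.63-fold higher in E16. Slitrk1 had levels of 7.83 and 7.13 in E19, against 8.77 and 8.66 in E16. Its ratios of -0.94 and -1.53 on the 2 arrays left it outside the call, with a mean of -1.23 ± 0.41, the widest SD of any detected member. Slitrk2 had levels of 7.03 and 6.86 in E19, against 7.39 and 7.43 in E16, and a ratio of -0.47 ± 0.15. Slitrk6, a gene needed for inner ear innervation in mouse, had the opposite sign, with levels of 8.78 and 8.63 in E19, against 8.16 and 8.23 in E16, and a ratio of 0.51 ± 0.17. Among the members, Slitrk1, Slitrk6 and Slitrk5 follow each other on chromosome 15, with gaps of 1836 and 1277 kb. The middle gene had a ratio of the other sign.

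Several probes of 1 gene give a check of its direction. Of 24 members with several probes, 21 had several detected. All detected probes were called for Ephb1 and Slit2, and some but not all for Epha1, Ephb6 and Sema6a. In Epha1 and Sema4g the probes differed in sign, and in 0 genes were they called in opposite directions.

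**Figure D4:**
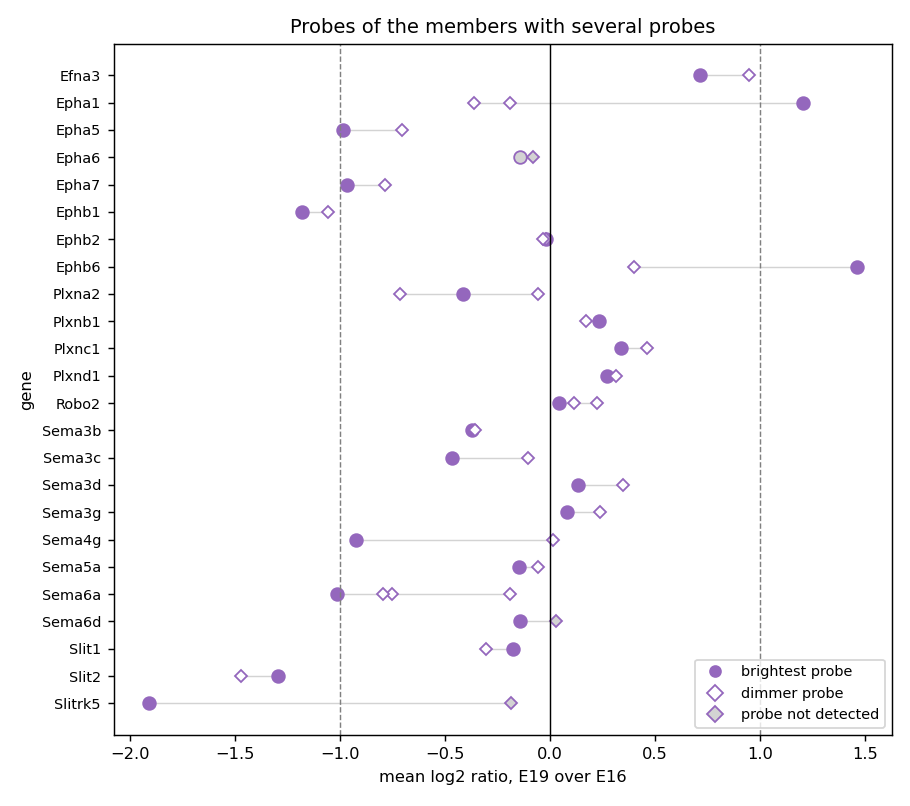
Log2 ratio E19 over E16 (x axis, mean of 2 arrays) of each probe of the 24 members with more than 1 probe. A grey line joins the lowest and highest probe of each gene, and no SD is drawn. The brightest probe of Epha1 stands at 1.21 and its other 2 probes at -0.19 and -0.36, while both Slit2 probes lie beyond -1.

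Other receptors, ligands and adhesion molecules of axon guidance were taken as a list of 29 genes, of which 25 were on the array and 20 detected. Of these, 0 were called higher in E19 and 5 higher in E16, with a median of -0.37 and 16 of 20 ratios below 0. These are 0% and 25% of the 20, against 4.15% and 3.75% of all detected genes. Unc5c, a netrin receptor that mediates repulsion, had -2.21 ± 0.07, and the adhesion molecules L1cam, Cntn2 and Nrcam had -1.74 ± 0.23, -1.55 ± 0.23 and -1.51 ± 0.05. Ntng1, a membrane-bound netrin relative, had -1.13 ± 0.10. Unc5d was highest, with 0.81 ± 0.12. Dcc, the attractive netrin receptor, was not detected.

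A list of 49 genes that carry guidance signals inside the cell had 47 on the array, all detected, with 1 called higher in E19 and 5 higher in E16. These are 2.13% and 10.6% of the 47, against 4.15% and 3.75% of all detected genes. Their median was -0.02. The 5 were the collapsin response mediator genes Dpysl4 with -2.67 ± 0.13, Crmp1 with -1.94 ± 0.12, Dpysl5 with -1.27 ± 0.10 and Dpysl2 with -1.17 ± 0.12, and the growth cone gene Gap43 with -2.02 ± 0.14. Ablim1, an actin-binding gene, was the 1 higher in E19, with 1.14 ± 0.13.

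Marker genes of several cell types differed between the same pools. The summed linear intensity of the 10 neuron markers was 8820 to 10640 in E19, against 49898 to 50942 in E16, with all 10 detected. For the 10 cartilage markers it was 10129 to 11221 in E19, against 36208 to 38272 in E16, with 8 called higher in E16. Schwann cell and glia markers gave 1 call of 9 detected, Fabp7 with -4.87 ± 0.30, and a median of -0.21. Adipocyte markers had the largest median of these lists, 3.26, with 8 of 9 detected called higher in E19 and summed intensities of 95036 to 96491 in E19, against 6909 to 8801 in E16. Suprabasal keratinocyte markers gave 8 calls of 9 higher in E19, with summed intensities of 888267 to 1073051 in E19, against 159222 to 468187 in E16. The brightest of these, Krt1 and Krt10, weigh most in the sum. Their arrays lay far apart, with ratios of 1.79 ± 1.56 and 1.87 ± 1.04. The 9 detected basal keratinocyte markers had a median of 1.13 with 3 calls higher in E19, and the 10 endothelial markers a median of 0.41 with 0 calls. Melanocyte markers had 2 calls of 5 detected, both higher in E19, and a median of 0.99. Fibroblast markers had 1 call of 10, higher in E19, and a median of 0.60. Skeletal muscle markers had 1 call higher in E19 and 2 higher in E16 of 10, and a median of -0.58. In such bulk RNA, fewer cells of a type and less RNA per cell cannot be told apart, and the part of these cell types in the ratios of the members was not tested.

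**Figure D5:**
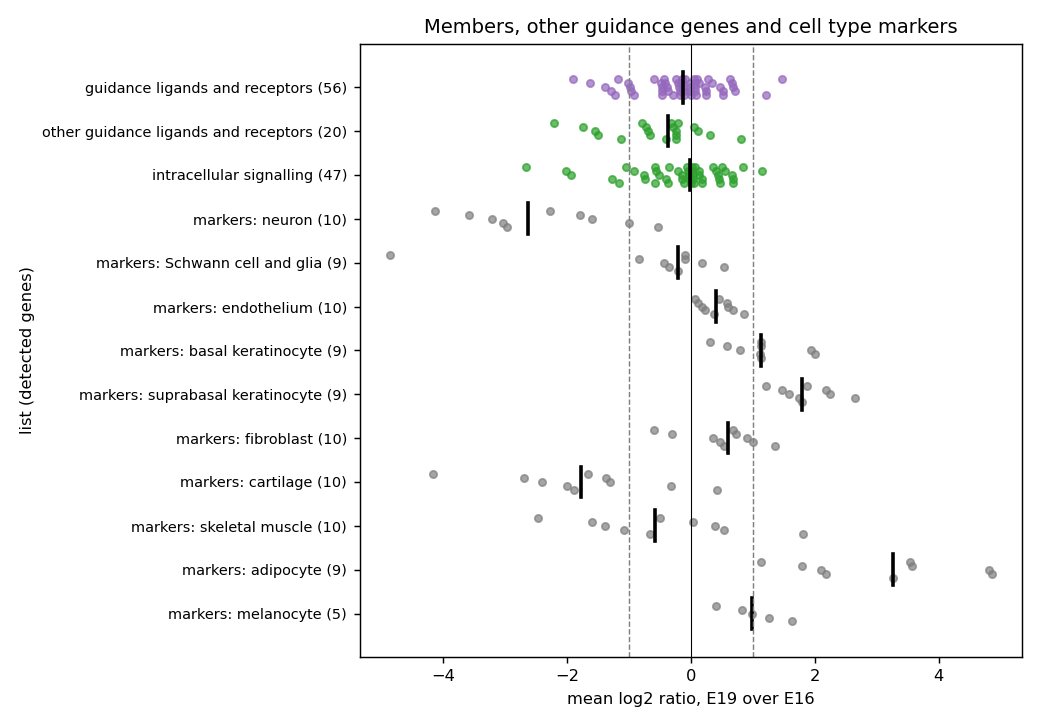
Log2 ratio E19 over E16 (x axis) of each detected gene, with a bar at each median. Rows (y axis) are the guidance members, the other guidance lists and the cell marker lists. The members' median is -0.12, against -2.63 for neuron, 1.79 for suprabasal keratinocyte and 0.41 for endothelial markers.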

How the data were processed

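Spot intensities in Cy5 and Cy3 were measured with Agilent Feature Extraction 9.5.1.1, per the file headers, and the deposited mean spot and median background intensities are uncorrected. The authors' deposited table gives 1 log10 ratio per sequence over both arrays. How it was made is not given in the sources used here. The table's direction was read as E19 over E16, because it correlated with that ratio on both arrays (r = 0.90 each over 22211 probes), and its values were turned to log2 here.

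Background was corrected with normexp (offset 50, which pulls ratios of dim probes towards 0), ratios were normalised by loess within arrays with control spots at weight 0, and levels by Aquantile between arrays, in limma 3.58.1 under R 4.3.3. Saturated spots were kept. Non-uniform spots and population outliers, as marked by Feature Extraction, were dropped. Spots of 1 probe were averaged. Later steps used Python 3.11.15, pandas 2.3.3 and scipy 1.17.1. The steps were tested on simulated data.

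Both arrays hold the same RNA pools and count as 1 replicate per stage. The number of arrays limits the precision. Gene names came from the array and were checked against RefSeq (GRCr8): 47 members matched by symbol, 15 by accession and 1 by synonym. The files name no genome build, so positions are those of RefSeq genes, not of probes.

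The members and lists were chosen with earlier results of these data known. Levels on every array are given for called members, members measured in only 1 pool and those of largest and smallest absolute ratio in each family. Other members with levels were chosen after their values were seen. Alternatives changed the background correction, normalisation, centring, spot and probe filters, probe choice, arrays, fold limit and the Slitrk genes.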

Additional observations from a re-analysis of the deposited data

How the results depend on the processing

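The count of members called higher in E19, 2 here, became 1 with median centring or with centring on the spike-in RNAs. It was 0 with the mean over all detected probes or a 3-fold limit, 5 with a 1.5-fold limit and 3 in the authors' deposited table. The count higher in E16, 6 here, became 10 with a normexp offset of 0, with Feature Extraction's processed signals, with spike-in centring, at 1.5-fold and in the authors' deposited table, 3 with median centring and 2 at 3-fold. The members' median, -0.12 here, became -0.15 with offset 0, -0.34 with spike-in centring and -0.082 in the authors' deposited table. The 10 spike-in RNAs averaged 0.21 ± 0.04 (SD over spike-ins), so that centring on them shifts all genes by -0.22 and leaves 14 members above 0 in place of 22. The 8 that then turned below 0 were Robo2, Plxnb2, Nrp1, Sema3d, Sema4c, Sema7a, Sema3g and Sema3e. With 1 array left out the counts were 2 in E19 and 7 in E16, and the median ran from -0.12 to -0.10.

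Epha3, Slitrk3 and Slitrk5 stayed called under all 13 alternatives run for each gene, and 0 called members changed sign. Not all of these alternatives could remove a call. A gene called on both arrays keeps its call on either array alone, and the filters on dim probes left these genes unchanged. The mean over detected probes also left them unchanged, because each had only 1 detected probe. Ephb1, Slit2, Sema6a and Epha1 lost the call with median centring, although their mean ratios there were -1.20, -1.35, -1.06 and 1.18. The arrays lay further apart without loess, as for Slit2 with -0.82 and -1.88, so that 1 array missed 2-fold. Ephb6 lost it with the mean over probes (0.93). Epha1 also lost it with spike-in centring and the mean over probes (0.22). Sema6a also lost it with the mean over probes (-0.69) and in the authors' deposited table (-0.95). Slitrk3 moved to -2.17 with Feature Extraction's processed signals and -2.11 in the authors' deposited table. Calls higher in E16 were gained by Epha5 under 6 of 12 alternatives, Slitrk1 under 6 of 13, Epha7 under 5 and Sema4g under 3. In the authors' deposited table Epha7 stood at -1.495 and Slitrk1 at -1.74. Nrp2 and Slitrk2 also passed 2-fold higher in E16 there, and Epha2 passed 2-fold higher in E19. Apart from what the construction of each alternative shows, the cause was not tested. Dim genes are limited by signal over background, as for Epha5, whose ratio ran from -3.37 to -0.84. No paired analysis was possible because both arrays hold the same 2 pools.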

Other observations

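Relatives that the arrays list under other names were left out of the members, and 4 could be matched to a current symbol. Epha4, an Eph receptor, had a ratio of -0.81 ± 0.01, with levels of 11.63 and 11.73 in E19, against 12.43 and 12.55 in E16. Ntn5 had -0.48 ± 0.01. Epha10 was not well above background in E19 on either array, which gives a level at least 1.31-fold higher in E16. Ntn4 was not detected, and 0 of the 4 were called.

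The authors' deposited table held 56 of the members, and 53 had the same sign as the ratio computed here. Epha5 stood at -3.15, Slitrk2 and Nrp2 at -1.07 and Epha2 at 1.02 in the authors' deposited table.

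Ephb2 and Epha8 lie 89 kb apart on chromosome 5, with ratios of -0.02 and -0.12. Robo1 and Robo2, 907 kb apart on chromosome 11, had -0.40 and 0.05.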
